A study of Mus musculus with 6 samples.

Results

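The 10 genes described here run the first gap phase (G1) of the cell cycle: the D-type cyclins Ccnd1, Ccnd2 and Ccnd3, the E-type cyclins Ccne1 and Ccne2, the cyclin-dependent kinases Cdk2 and Cdk4, and the Cip/Kip inhibitors Cdkn1a, Cdkn1b and Cdkn1c. They were chosen by name, and 17 of the 41174 noncontrol probes on the array carry one of these 10 names, among 28786 gene names in all. The hearts of 6 male mice were studied, all of the inbred strain C57BL/6, and the labels name no engineered allele. In 3 mice the adrenal glands, the main source of corticosterone and aldosterone, had been removed at 1 month of age, and 3 sham-operated mice were the controls. Hearts were taken 6 months after surgery per the protocol, although another label gives 6 months as the age of the mice. Each heart was measured on its own 1-colour Agilent array of 60-base probes, and the labels do not say which part of the heart was used.

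D-type cyclins pair with Cdk4 and E-type cyclins with Cdk2, and these kinases phosphorylate the retinoblastoma proteins, which frees E2F transcription factors to switch on genes of DNA replication. The Cip/Kip proteins bind the cyclin-kinase complexes and restrain the E-type ones most strongly. Adult cardiomyocytes rarely divide, so most cell division in the adult heart is that of other cells, and cyclins and inhibitors are nonetheless transcribed in the tissue.

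None of the G1 genes passed the test between the groups. Signals were expressed as log2 of the processed intensity relative to the 75th percentile of the same array, so that a level of 0 equals that percentile and a difference of 1 is a doubling, and genes were tested with limma at a Benjamini-Hochberg adjusted p under 0.05. Of the 10 genes, 9 were well above background on all 6 arrays with at least 1 probe and were tested, and Cdk2 was not tested. In limma 0 of the 9 passed, against 7 of 16949 genes tested in all (0.0413%; 0.0295% higher and 0.0118% lower). At an unadjusted p under 0.05 there were 2 of 9, Ccne1 higher and Cdkn1b lower, beside 12.2% of all genes (6.07% higher and 6.12% lower). Sham and adrenalectomized values were fully separated for 3 of 9 genes, Ccne1 and Ccnd1 higher and Cdkn1b lower, beside 18.2% of all genes (10.1% higher and 8.15% lower). These shares are from small counts of G1 genes, and whether they differ from the background was not tested. Differences, always adrenalectomized minus sham, ran from -0.26 for Cdkn1b to 0.36 for Ccne1, with 7 above 0 and 2 below. Over all genes tested 9465 were above 0 and 7484 below. The median of the G1 genes was 0.14, beside 0.028 over all genes tested.

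**Figure D1:**
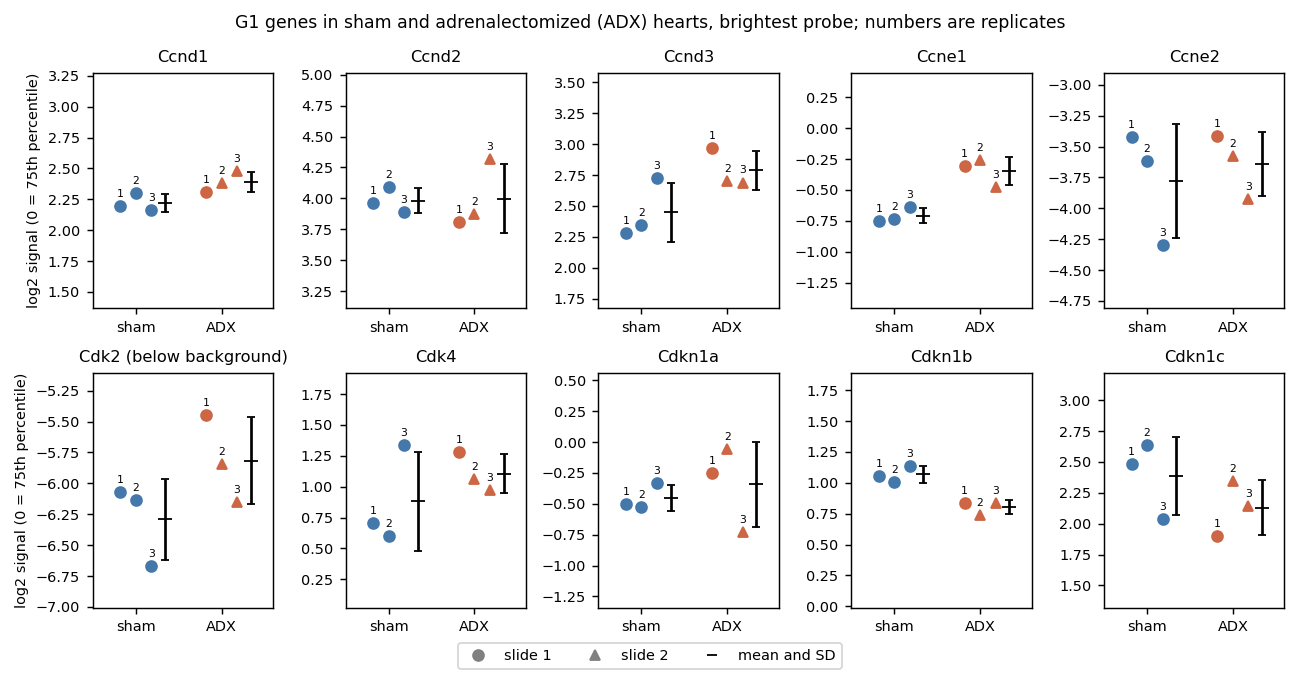
Log2 signal of the brightest probe of each gene (0 is the 75th percentile of the array) on 3 sham and 3 adrenalectomized (ADX) arrays, each panel spanning the same number of log2 units; circles lie on slide 1, triangles on slide 2, and bars are mean and SD. Ccne1 and Ccnd1 have all 3 adrenalectomized values above the sham values, Cdkn1b has them below, and Cdk2 is below background throughout.

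Between 57.7% and 66.8% of noncontrol spots were well above background, the 75th percentile lay between 645 and 924 intensity units, and the least alike pair of arrays had a Pearson correlation of 0.982 over genes, which do not replicate each other. The 3 sham arrays and adrenalectomized replicate 1 shared slide 1, while the other adrenalectomized arrays made up slide 2, so a slide-blocked comparison rests on slide 1, with 1 adrenalectomized array that is assumed to vary as the others do. All 5 cardiomyocyte markers examined (Myh6, Tnnt2, Tnni3, Actc1 and Ryr2) were well above background on every array. Their summed signal was 2174 to 2568 times the 75th percentile in sham hearts and 1969 to 2237 times in adrenalectomized hearts. With 3 arrays a group, the smallest two-sided p of an exact permutation test is 0.1, so no such test is quoted.

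Ccnd1 encodes cyclin D1, the cyclin that mitogens induce early in G1. Its probe, printed in 10 spots on each array, gave levels of 2.20, 2.30 and 2.17 in sham hearts and 2.31, 2.39 and 2.48 in adrenalectomized hearts. The groups did not overlap, but sham replicate 2 and adrenalectomized replicate 1 were almost level. The difference was 0.17 (SE 0.10, limma adjusted p = 0.551), or 1.12-fold, and its 95% interval ran from 0.949-fold to 1.33-fold. The spots of an array had an SD of 0.04 to 0.10, close to the SD between mice of 0.07 in the sham and 0.08 in the adrenalectomized group, and within slide 1 the difference was 0.090. The array design places the probe on an unassigned part of chromosome 7 in the mm7 assembly, at positions 7568179 to 7568238.

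Ccnd2 encodes cyclin D2, a D-type cyclin of cardiac growth, and was read by 3 probes, all above background on all arrays. The probe with the brightest signal gave 3.96, 4.09 and 3.89 in sham hearts and 3.81, 3.87 and 4.32 in adrenalectomized hearts. Adrenalectomized replicate 3 was the highest of the 6 and the other 2 adrenalectomized arrays were the lowest, so the groups overlapped. The difference was 0.018 (SE 0.16, limma adjusted p = 0.976), with an interval from 0.781-fold to 1.31-fold. The other probes differed by -0.032 (SE 0.19) and 0.13 (SE 0.18), and on both of them too adrenalectomized replicate 3 gave the highest value. Within slide 1 the brightest probe differed by -0.17. The brightest probe and one other come from separate stretches of the coding sequence and are shown because adrenalectomized replicate 3 was the highest array on both.

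Ccnd2, chr6:127163669-127163728 (mm7, minus strand): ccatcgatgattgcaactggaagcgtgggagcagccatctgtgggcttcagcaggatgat
Ccnd2, chr6:127173178-127173237 (mm7, minus strand): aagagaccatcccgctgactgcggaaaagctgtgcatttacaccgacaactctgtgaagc

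The third Ccnd2 probe lies at chr6:127154070-127154129. Exons and untranslated regions are not given for the probes, because no annotation of that assembly was used.

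Ccnd3 encodes cyclin D3, and Cdk4 the kinase that the D-type cyclins activate. Ccnd3 gave 2.28, 2.34 and 2.72 in sham hearts and 2.97, 2.70 and 2.69 in adrenalectomized hearts. Sham replicate 3 lay among the adrenalectomized values and the other sham arrays lay below all of them. The difference was 0.34 (SE 0.16, limma adjusted p = 0.439), or 1.27-fold, with an interval from 0.981-fold to 1.64-fold.

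Cdk4 gave 0.70, 0.60 and 1.34 in sham hearts and 1.28, 1.06 and 0.97 in adrenalectomized hearts. Sham replicate 3 was again with the adrenalectomized arrays, here as the highest value of all. The difference was 0.22 (SE 0.21, limma adjusted p = 0.697), with an interval from 0.830-fold to 1.64-fold. Within slide 1 the differences of Cdk4 and Ccnd3 were 0.40 and 0.52. Without sham replicate 3 Cdk4 differed by 0.45, but by 0.085 without sham replicate 2, 0.13 without sham replicate 1 and 0.14 without adrenalectomized replicate 1. Ccnd3 ran from 0.25 without adrenalectomized replicate 1 to 0.48 without sham replicate 3. The Cdk4 probe (chr10:126562389-126562448 in mm7, plus strand) is shown because it covers the kinase's catalytic region, with the codons of the DFG motif, the loop that positions the metal ion of ATP, in capitals. The Ccnd3 probe lies at chr17:45735858-45735917.

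Cdk4: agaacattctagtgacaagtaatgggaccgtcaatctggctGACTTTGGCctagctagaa

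Ccne1 encodes cyclin E1, the partner of Cdk2 at the entry to S phase and a target of E2F. Its brighter probe gave -0.75, -0.73 and -0.64 in sham hearts and -0.30, -0.26 and -0.48 in adrenalectomized hearts. All 3 adrenalectomized values lay above all sham values. The difference of 0.36 (SE 0.11), or 1.29-fold, had an interval from 1.08-fold to 1.54-fold and did not pass over all genes (limma adjusted p = 0.287). It was 0.41 within slide 1 and between 0.32 and 0.43 with single arrays left out.

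The dimmer Ccne1 probe gave a difference of 0.10 (SE 0.21), with groups that overlapped, and the mean of both probes 0.23. Its signal stood at -3.70, -4.00 and -4.27 in sham hearts and -3.60, -3.80 and -4.26 in adrenalectomized hearts, or 40.2 to 63.3 intensity units. Both probes share one design position on chromosome 7, from 34990690 to 34990713, an interval shorter than the probes.

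Ccne2, which encodes cyclin E2, was dim. Its detected probe (chr4:11130171-11130230) gave -3.42, -3.61 and -4.30 in sham hearts and -3.42, -3.58 and -3.92 in adrenalectomized hearts. Replicate 3 was the lowest of each group, and the groups overlapped. The difference was 0.14 (SE 0.25, limma adjusted p = 0.857), with an interval from 0.732-fold to 1.65-fold, the widest of the 9 genes on the log2 scale. Without sham replicate 3 it was -0.12, and within slide 1 it was 0.36. A neighbouring Ccne2 probe was well above background only on sham replicate 1 and was not tested.

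Cdk2, the kinase that E-type cyclins activate, was not well above background with either of its probes on any of the 6 arrays. Its brighter probe read between 9.1 and 17.6 intensity units, where the Cdk4 probe read 980 to 2333, but signals of different probes do not rank the genes. No difference is given for Cdk2. The brighter of its probes (chr10:128205529-128205588 in mm7, minus strand) is shown because it lies in the coding sequence and was still not detected.

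Cdk2: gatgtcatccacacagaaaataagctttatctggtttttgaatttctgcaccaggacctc

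Cdkn1b encodes p27, the inhibitor that accumulates in quiescent cells, and was lower in adrenalectomized hearts with both of its tested probes, without passing. The brightest probe (chr6:134939519-134939578), designed on a clone sequence, gave 1.06, 1.01 and 1.14 in sham hearts and 0.83, 0.74 and 0.84 in adrenalectomized hearts. The groups did not overlap, and the SD was 0.07 in the sham and 0.06 in the adrenalectomized group. The difference was -0.26 (SE 0.10, limma adjusted p = 0.369), or 1.20-fold lower, with an interval from 1.02-fold to 1.41-fold lower, and it was -0.23 within slide 1.

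The other tested Cdkn1b probe, printed in 10 spots per array, showed a larger difference. It gave -1.91, -1.86 and -2.33 in sham hearts and -3.06, -2.93 and -2.60 in adrenalectomized hearts. All adrenalectomized values again lay below all sham values, with adrenalectomized replicate 3 nearest to sham replicate 3. The difference was -0.83 (SE 0.18), or 1.78-fold lower, with an interval from 1.32-fold to 2.38-fold lower. In limma over all 23990 probes tested its unadjusted p was 0.00235 and its adjusted p 0.168, where 13.5% of probes had an unadjusted p under 0.05 and 1 probe passed (0.00417%). Over the alternatives the adjusted p of this probe ran from 0.0206, with normexp background correction, to 0.477, and the difference from -1.07 to -0.73. Within slide 1 it was -1.02 (adjusted p = 0.253). The spots of an array had an SD of 0.07 to 0.27, beside an SD between mice of 0.26 and 0.24. With the mean of both probes Cdkn1b differed by -0.55 (limma adjusted p = 0.196). Whether the probes differed from each other was not tested.

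This probe (chr6:134935407-134935465 in mm7, plus strand) is shown because it carries the larger difference. Its capitals mark codons of the kinase-binding stretch that the 3 Cip/Kip inhibitors share.

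Cdkn1b: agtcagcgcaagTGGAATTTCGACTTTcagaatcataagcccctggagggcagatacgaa

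Another Cdkn1b probe (chr6:134937910-134937969) was well above background only on adrenalectomized replicate 1 and was not tested.

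**Figure D2:**
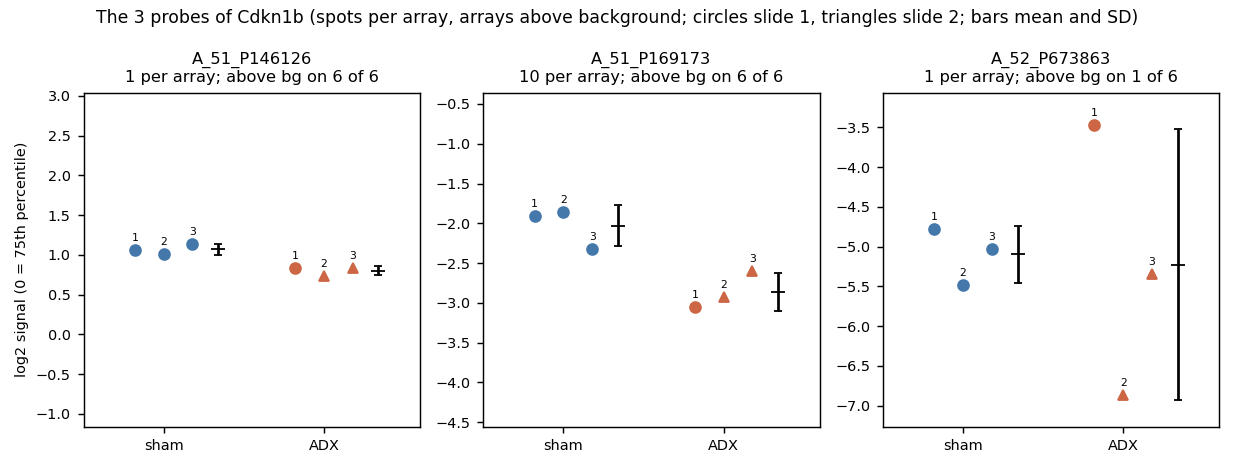
Log2 signal (0 is the 75th percentile of the array) of the 3 Cdkn1b probes on each array, with the number of spots per array and of arrays well above background in the panel titles; bars are mean and SD, and the panels span equal ranges. The adrenalectomized values lie below all sham values on the 2 tested probes, by 0.26 and 0.83 on the log2 scale, while the other probe was above background only on adrenalectomized replicate 1.

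Cdkn1a encodes p21, an inhibitor induced by p53 and by glucocorticoids in several cell types. Its 10-spot probe (chr17:27293819-27293878) gave -0.50, -0.52 and -0.33 in sham hearts and -0.25, -0.06 and -0.73 in adrenalectomized hearts. Adrenalectomized replicates 1 and 2 were above all sham arrays and replicate 3 below all of them. The difference was 0.11 (SE 0.18, limma adjusted p = 0.840), with an interval from 0.801-fold to 1.46-fold. The repeat spots had an SD of 0.04 to 0.06 within an array, while the SD between mice was 0.10 in the sham and 0.34 in the adrenalectomized group. Within slide 1 the difference was 0.21, and without adrenalectomized replicate 2 it was -0.033.

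Cdkn1c encodes p57, an inhibitor expressed from the maternal allele of an imprinted domain and induced by glucocorticoids in some cells. Its probe (chr7:139886128-139886187) gave 2.48, 2.64 and 2.04 in sham hearts and 1.90, 2.34 and 2.14 in adrenalectomized hearts. Sham replicates 1 and 2 were the highest, but sham replicate 3 lay within the adrenalectomized range. The difference was -0.26 (SE 0.19, limma adjusted p = 0.619), with an interval from 0.611-fold to 1.14-fold. It was -0.49 within slide 1 and -0.43 without sham replicate 3, but -0.13 without sham replicate 2 and -0.14 without adrenalectomized replicate 1.

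**Figure D3:**
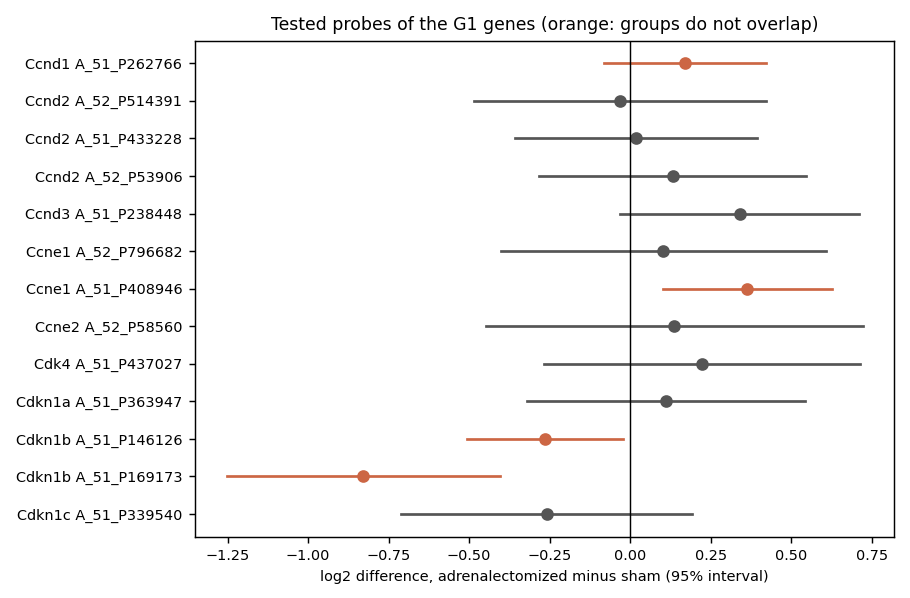
Log2 difference, adrenalectomized minus sham, for each tested probe of the 9 genes, with its 95% interval from limma over all probes; orange marks probes whose groups do not overlap. The intervals of the brighter Ccne1 probe and of both Cdkn1b probes lie to one side of 0 before adjustment, and those of the other probes include 0.

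Sham replicate 3 stood apart from the other sham arrays for several of these genes. For 6 of the 9 genes (Ccnd2, Ccnd3, Ccne2, Cdk4, Cdkn1a and Cdkn1c) its distance from the mean of the other sham arrays was larger than the difference between the groups. That distance was 0.68 for Cdk4, 0.41 for Ccnd3, -0.53 for Cdkn1c and -0.78 for Ccne2. For Ccne1 and Cdkn1b it was 0.10 and 0.11, well under their group differences. A single array set against the mean of others varies more than a difference between group means, so such distances can be large for any array. Sham replicate 3 was picked after its values were seen, and the distance was not compared with other arrays or over all genes. The 75th percentile of sham replicate 3, 924 intensity units, was also the highest of the 6 arrays, and its part in these values was not tested.

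The other genes of the pathway were compared through 6 lists of 81 genes, 74 of them tested, of which 2 passed, E2f1 and Ccnb1. Both were tested only because they were well above background on all 3 adrenalectomized arrays, which favours a higher value there, and the same holds for E2f8 and Cdk1. Where detection on all 6 arrays was required, 0 related genes were called in limma. E2f1 and Ccnb1 were not tested there, so that setting could not keep their calls. In the retinoblastoma and E2F list 1 of 13 genes passed, as higher, and 0 passed as lower. E2f1, which encodes the E2F factor that promotes entry into S phase, stood at -4.36, -4.26 and -4.37 in sham hearts and -2.92, -3.26 and -2.94 in adrenalectomized hearts. It was well above background on 2 of the 3 sham arrays and on all adrenalectomized arrays, and differed by 1.29 (SE 0.13, limma adjusted p = 0.0486). The call was kept in 2 of 17 alternatives, with adjusted p from 0.0447 to 0.343 over all of them. Those that kept it include the value table, which repeats the values of the main fit. It was lost in the slide-blocked fit (1.41, adjusted p = 0.200) and in each fit that left out an array. With normexp background correction the sign turned (-0.55, adjusted p = 0.114). With the mean of its tested probes E2f1 differed by 0.94 (limma adjusted p = 0.0871).

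In the list of S, G2 and M phase cyclins and kinases, 9 of 13 genes were tested and 1 passed. Ccnb1, the cyclin of mitotic entry, was detected on all 3 adrenalectomized arrays and no sham array. Its adrenalectomized mean was 1.28-fold the mean of the dimmest detected signals of the sham arrays. An undetected probe can be brighter than those signals, so this value is not a lower bound, and it was not tested. The fitted difference of Ccnb1, into which the dim sham signals enter, was 2.31 (limma adjusted p = 0.0486). The call was kept in 3 of 17 alternatives, among them the value table that repeats the main values, and lost in each fit without an array. Normexp turned it to a call in the other direction (-0.87, limma adjusted p = 0.0458, with adjusted p from 0.0447 to 0.343 over the alternatives). Cdk1, the mitotic kinase, was well above background on 2 of 3 sham arrays, so a count or median over the tested genes of this list leans upward and is not used. The other tested genes of the list were well above background on every array, and none of them passed. Ccna2 differed by 1.04 and Ccnb2 by 0.93 (limma adjusted p = 0.0610 for both), Mki67 by 1.04 and Plk1 by 0.75. Cdc25b differed by 0.57 and Aurka by 0.45, while Wee1 differed by -0.22. Among these genes the groups overlapped only for Wee1.

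Among DNA replication genes 0 of 15 passed in limma, all 15 differences were above 0 and the median was 0.34, with 7 higher at an unadjusted p under 0.05. Over all genes tested, 9465 of 16949 differences were above 0, and 6.07% of genes were higher and 6.12% lower at that p. Mcm5 and Mcm2, subunits of the replicative helicase, differed by 0.65 (SE 0.11, limma adjusted p = 0.144) and 0.46 (SE 0.10, adjusted p = 0.206), and in both genes the groups did not overlap. Among the other G1 kinases, INK4 inhibitors and regulators 0 of 13 passed, with 1 higher and 2 lower at an unadjusted p under 0.05 and a median of -0.026. Fbxw7, the ubiquitin ligase subunit that marks cyclin E for destruction, differed by -0.53 (SE 0.16, limma adjusted p = 0.286). Cables1, a protein that links kinases to their regulators, differed by 0.52 (SE 0.17, adjusted p = 0.320). It was 0.15 within slide 1 and was called higher with normexp (0.75, adjusted p = 0.0273, with adjusted p up to 0.780 over the alternatives). Cdkn2a, which encodes p16, was not well above background on any array and was not tested.

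The p53 list, which asks about the best known inducer of Cdkn1a, had 0 of 16 genes past the threshold, 1 higher at an unadjusted p under 0.05 and a median of 0.071. Gadd45a, a stress-induced growth arrest gene, differed by 0.28 (SE 0.12, limma adjusted p = 0.406), and Phlda3, an inhibitor of Akt, by 0.74 (SE 0.36, adjusted p = 0.456). The difference of Phlda3 was -0.038 within slide 1, 0.40 without adrenalectomized replicate 2 and 1.13 without adrenalectomized replicate 1. Gadd45a differed by 0.18 within slide 1 and was called higher with normexp (0.48, adjusted p = 0.0324, with adjusted p up to 0.772 over the alternatives). Of the neighbours of Cdkn1c in its imprinted domain 0 of 8 passed, and 0 had an unadjusted p under 0.05 in limma. The lipid transfer gene Osbpl5 differed by 0.23 (SE 0.10, limma adjusted p = 0.412) and the transcription factor gene Ascl2 by -0.43 (SE 0.19, adjusted p = 0.432). The differences between these lists and the G1 genes were not tested.

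**Figure D4:**
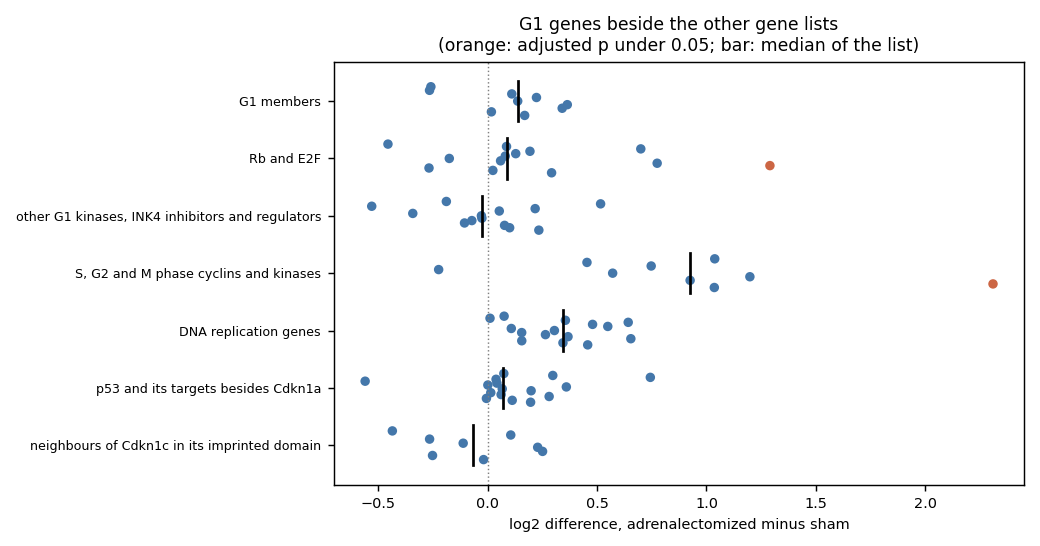
Log2 difference, adrenalectomized minus sham, of each tested gene (points) in the G1 set and the 6 related lists, with the median of each list as a bar and genes past an adjusted p of 0.05 in orange. The G1 genes lie between -0.26 and 0.36, and the 2 orange points are Ccnb1 and E2f1, which entered the test through the adrenalectomized arrays and turn sign under normexp background correction.

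Markers of other cell types that a heart sample can hold were read beside these genes, since in bulk tissue fewer cells of a type and less RNA per cell cannot be told apart. The summed signal of 5 fibroblast markers was 171 to 214 times the 75th percentile in sham and 144 to 166 times in adrenalectomized hearts, and 4 of 5 differences were below 0. For 5 endothelial markers it was 52.0 to 55.1 and 41.9 to 53.1. For 5 smooth muscle and pericyte markers it was 57.4 to 120 and 59.3 to 84.9, and for 5 macrophage markers 89.3 to 108 and 97.4 to 116. Differences were below 0 for 4 of 5 endothelial, 4 of 5 cardiomyocyte, 5 of 5 smooth muscle and pericyte and 2 of 5 macrophage markers. Over all genes tested 7484 of 16949 were below 0. The sum of 5 adipocyte markers was 316 to 425 in sham and 386 to 675 in adrenalectomized hearts, and all 5 differences were above 0. Their median was 1.39, and that sum is mostly the bright Fabp4, which differed by 0.29. Ucp1, Plin1 and Cidea, which mark brown fat or lipid droplets, differed by 2.88, 1.79 and 0.93 and are 3 of the markers with an unadjusted p under 0.05, named after their values were seen. The sum of 4 tested lymphocyte markers was 0.540 to 0.777 and 0.545 to 1.49, and that of 3 tested erythroid markers 383 to 586 and 297 to 844. Cd79a was not well above background in all arrays of either group. None of these 37 tested markers, the cardiomyocyte ones included, passed in limma, 6 had an unadjusted p under 0.05, and their part in the values of the G1 genes was not tested.

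Normexp background correction started from the mean spot signal rather than the processed one. It subtracted the local background and modelled the remainder over each array as noise plus signal. With it 1 G1 gene was called higher (Ccnd3, 0.63, limma adjusted p = 0.0241) and 1 lower (Ccne2, -1.05, adjusted p = 0.0246). That setting called 1189 genes higher and 4739 lower of 16949, and over all alternatives the adjusted p of Ccnd3 ran from 0.0241 to 0.732 and that of Ccne2 from 0.0246 to 0.987. Ccnd1, Ccnd3, Ccne1, Cdk4 and Cdkn1b kept the sign of their difference in all 18 alternatives. The value table, the other filters, testing every probe and the replicate block left these differences as in the main fit. So did the mean of probes for genes with 1 tested probe, and these settings therefore add nothing to the count.

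**Figure D5:**
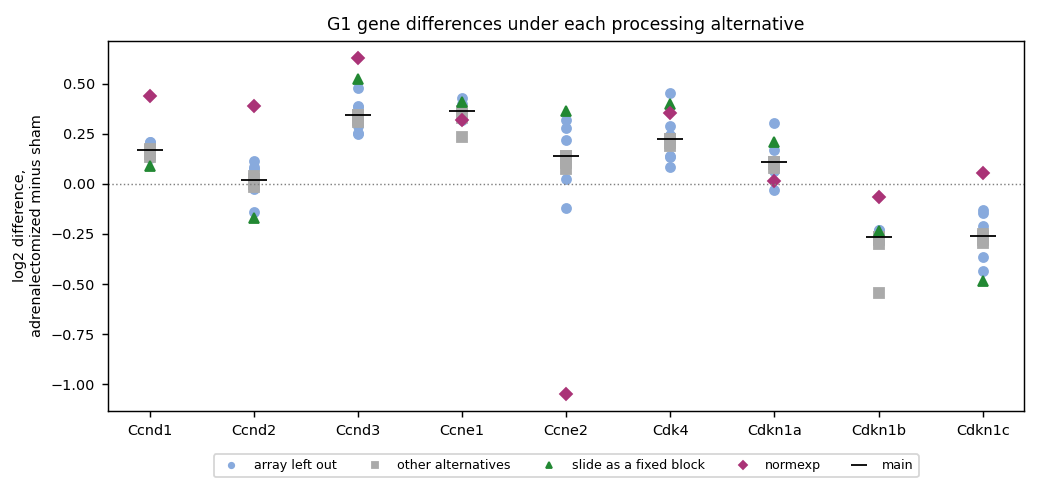
Log2 difference, adrenalectomized minus sham, of each tested G1 gene under the main processing (bars) and the 18 alternatives, grouped by colour and symbol. Ccne1 stays between 0.23 and 0.43 and Cdkn1b between -0.55 and -0.068, while Ccne2 runs from -1.05 to 0.36.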

How the data were processed

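Feature Extraction 9.5.3.1 read the scans per the file headers, and 9.5 per the submitters' processing notes. Each spot's deposited signal is a linear intensity, with spatial and multiplicative detrending within each array switched on and local background correction switched off, per the file headers. No scaling between arrays was found in it, since the 75th percentiles differed. The deposited value table repeats the intensity of all 45018 spots on a linear scale without centring, with column medians from 68.1 to 92.2.

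Spots for control and those flagged as outliers, 80 to 133 on an array, did not enter. Log2 signals minus the 75th percentile of the array were averaged over the spots of a probe. A probe counted as well above background on an array when at least 50% of its spots were. It was tested when this held on all 3 arrays of a group (23990 probes). Each gene was represented by its brightest tested probe (16949 genes). RefSeq accessions named 22951 probes (55.7%), and other probes kept the name in the file. The limma fit (lmFit, then eBayes; version 3.58.1, under R 4.3.3) gave differences with p-values adjusted by Benjamini-Hochberg, and was tested on simulated data. Python 3.11.15 read the files. The number of arrays limits the precision (median SE 0.14 over all genes). Coordinates come from the array's design and refer to mm7.

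The G1 genes, the lists and the alternatives were chosen with earlier results of these data known. The text names all 10 G1 genes and, from each list, the genes past the threshold or else the 2 of smallest p. The remaining tested genes of the S, G2 and M phase list, and E2f8, Rb1 and Tfdp2, were named after their values were seen. The design calls the mice biological replicates.

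Alternatives were normexp (offset 50), median centring, quantile normalization, the 75th percentile taken over detected probes, the value table, other filters, the mean of probes, every probe, slide as a block (fixed or random), the replicate number as a block, and each array left out. The fits of the 10-spot Cdkn1b probe and of single related genes under these settings were added after seeing the data.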

Additional observations from a re-analysis of the deposited data

How the results depend on the processing

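In 17 of 18 alternatives 0 G1 genes were called in either direction, and with normexp 1 was called higher and 1 lower. The 18 include the value table, which repeats the main fit and could not differ from it. The median difference of the G1 genes, 0.14, was 0.32 with normexp and 0.21 with the slide as a fixed block, and ran from 0.085 to 0.28 with an array left out, where the high value came without adrenalectomized replicate 3. The difference of Ccnd2 turned to -0.017 with median centring, -0.17 with the slide as a fixed block, -0.026 without sham replicate 3 and -0.14 without adrenalectomized replicate 3, in a range up to 0.11 with an array left out. Ccne2 turned to -1.05 with normexp and -0.12 without sham replicate 3 (up to 0.32 without another array), Cdkn1a to -0.033 without adrenalectomized replicate 2 (up to 0.30), and Cdkn1c to 0.054 with normexp. Normexp also turned E2f1 to -0.55 and Ccnb1 to -0.87, and the slide as a fixed block turned Phlda3 to -0.038. Normexp called Mcm5 (0.41), Osbpl5 (0.50), Cables1 (0.75) and Gadd45a (0.48) higher and Ascl2 (-1.14) lower, which the main fit did not. Of the related genes, 2 were called higher and 0 lower. The count called higher was 1 with median centring, 13 with normexp, which also called 15 lower, and 0 with quantile normalization, the percentile over detected probes, no filter, only probes above background on all 6 arrays, the mean of probes, every probe tested, the slide as a fixed block and the replicate block, and from 0 to 0 with an array left out, whichever of the 6 it was. Where detection on all 6 arrays was required, E2f1 and Ccnb1 were not tested. For the other settings the cause was not tested. Over all genes the main fit called 5 higher and 2 lower, quantile normalization 2 and 3, median centring 3 and 5, and the percentile over detected probes 0 and 2. Leaving out adrenalectomized replicate 1 gave 8 and 1, and no filter, the slide as a fixed block and the replicate block each gave 0 and 1. No clear pairing by replicate number was seen. Deviations of same-numbered arrays correlated at 0.157, 0.163 and -0.161, and 3 of 6 arrays correlated best with their own number. With so few arrays this check can neither show nor exclude a pairing. The replicate block called 0 G1 genes. Signals near background limit Ccne2, the dimmer Ccne1 probe and Cdk2.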
